A study of Homo sapiens with 8 samples.

Results

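The miR-193 and miR-365 clusters are a pair of paralogous gene clusters, each with one miR-193 hairpin and one miR-365 hairpin. The mature products listed for them in the count table were taken as members by name: hsa-miR-193a-5p, hsa-miR-193a-3p, hsa-miR-193b-5p, hsa-miR-193b-3p, hsa-miR-365a-5p, hsa-miR-365a-3p and hsa-miR-365b-5p (written without the human prefix from here on), which are 7 of 3112 listed miRNAs, 1482 of them known and 1630 predicted. A further listed name, miR-365b-3p, has the same counts as miR-365a-3p in all 8 libraries, so both names stand for one measurement, which is given under miR-365a-3p. Small RNA was sequenced from 786O cells, an established line of human clear cell renal cell carcinoma (ccRCC). The negative control group (NC, 4 libraries) received a control plasmid, and the circSOD2-sh group (4 libraries) received a plasmid carrying a short hairpin RNA against circSOD2, a circular RNA of the SOD2 gene. Both groups were transfected with Lipofectamine 3000 per the labels and RNA was taken after 48 h, whereas the study's methods describe lentiviral knockdown with puromycin selection, and the hairpin used is not named. Nothing states that the libraries of a group came from separate cultures, so p-values here measure the spread between these libraries, which may be technical. The comparison asks which miRNAs differ when circSOD2 is knocked down.

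A miRNA hairpin is cut to a short duplex, of which the strand from the left arm (5p) or the right arm (3p) is kept by an Argonaute protein, and the kept strand finds target transcripts mainly through its seed, the bases near its 5′ end. Transcripts that carry several hairpins can give several miRNAs at once, and the clusters of miR-193 and miR-365 are known for their expression in brown fat and muscle, where miR-193b and miR-365 have been studied in adipocyte and muscle development. The 3p strands of miR-193a and miR-193b have been described as growth-restraining in several carcinomas.

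The sequences show what the members share. Mature sequences of RefSeq on GRCh38.p14 were found for 8 of 8 names and are 22 or 23 bases long. In the sequences that follow, written 5′ to 3′, capitals mark the seed (bases 2 to 8). The 3p products of miR-193 have one seed, the 3p products of miR-365 have another, and these carry nearly all reads of the clusters.
miR-193a-3p: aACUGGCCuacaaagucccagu
miR-193b-3p: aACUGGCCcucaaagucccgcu
miR-365a-3p: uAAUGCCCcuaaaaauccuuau
miR-365b-3p: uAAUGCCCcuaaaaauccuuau
The 5p products are shown because they set the arm ratios. Those of miR-193 differ from each other within the seed, while those of miR-365 share theirs.
miR-193a-5p: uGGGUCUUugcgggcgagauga
miR-193b-5p: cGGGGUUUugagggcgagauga
miR-365a-5p: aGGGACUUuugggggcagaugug
miR-365b-5p: aGGGACUUucaggggcagcugu

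Counted from 1 at the 5′ end, miR-193a-3p and miR-193b-3p have the same base at 18 of 22 positions, and their 4 differences (U9C, A10U, A20G and G21C, the miR-193a base first) all lie outside the seed. Reads of the miR-193 paralogs could therefore be assigned by sequence. The 5p strands of miR-193 match at 18 of 22 positions and differ by U1C, U5G, C6U and C11A, of which U5G and C6U are in the seed. The 5p strands of miR-365 differ by U10C, G11A and A19C over the 22 bases compared. The 3p strands of miR-365 are identical at 22 of 22 bases, so their counts cannot be divided between the loci. The 8 names hold 5 distinct seeds, and 0 other mature miRNAs in the RefSeq table have any of them.

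On GRCh38, MIR193B lies at chr16:14303967-14304049 and MIR365A at chr16:14309285-14309371, both on the plus strand and within introns of the long non-coding gene MIR193BHG, with 5235 bases between them. MIR193A lies at chr17:31559996-31560083 on the plus strand, outside annotated genes of that strand in GENCODE 29. MIR365B lies 15327 bases further on, at chr17:31575411-31575521 on the plus strand, in an exon of the long non-coding gene AC003101.1. Thus each chromosome carries one hairpin of each kind in the same order.

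Library depth bears on every level given here. NC libraries had totals of 6386872 to 9245044 counts, of which 36.2% to 41.9% belonged to known miRNAs. For circSOD2-sh the totals were 3743860 to 4208276, with 95.1% to 96.5% known. One predicted miRNA alone took up 54.3% to 59.1% of each NC library but only 0.0628% to 0.105% of each circSOD2-sh library. Levels are therefore given as normalized CPM, counts per 1000000 counts of a library whose size was scaled by the trimmed mean of M values (TMM), which centres the tested miRNAs. Over all tested miRNAs the log2 fold changes had a median of -0.00207 with TMM and of 0.963 with library totals, so a small change can turn its sign with this choice. A count of 3, taken as the floor, equals 0.46 to 0.674 normalized CPM for NC libraries and 0.51 to 0.602 for circSOD2-sh libraries (counting error only, since amplified reads are not independent molecules).

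A pair of libraries stood apart in marker miRNAs of other cell types. Neural markers (5 miRNAs) added up to 5240 normalized CPM in circSOD2-sh replicate 2, where the other 3 libraries of its group had 476 to 494. Its 4 stromal markers came to 228 against 8.0 to 13.4, and 51 of 463 known tested miRNAs (11%) exceeded 1.5 times the highest other library of the group. NC replicate 4 had 557 for the stromal markers where its group otherwise had at most 8.7, and 1070 for the 4 kidney tubule markers against at most 399, 171 for the 4 erythroid markers against at most 42.6, 47.4 for the 4 muscle markers against at most 15.7 and 17.1 for the 4 leukocyte markers against at most 2.0. The 5 epithelial markers ranged from 5090 to 5830 over NC and from 4400 to 4870 over circSOD2-sh, the kidney tubule markers from 300 to 349 over circSOD2-sh, and the liver marker from 3.75 to 5.83 over NC and from 1.36 to 2.49 over circSOD2-sh. The hypoxia marker miR-210-3p, which is known to be raised in ccRCC lines lacking VHL, ranged from 20 to 27 normalized CPM over NC and from 13.9 to 19.8 over circSOD2-sh. Over circSOD2-sh, erythroid markers ranged from 21.6 to 59.9 and leukocyte markers from 2.13 to 14.7, each highest in replicate 2, and over NC neural markers ranged from 522 to 559. None of the marker miRNAs was at 0 in every library. Changes in the tested members are given with and without these libraries.

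The clusters' output was almost entirely a pair of 3p strands. miR-365a-3p, counted once, made up 60.5% to 63.1% of the clusters' reads in NC libraries and 68.4% to 73.6% in those of circSOD2-sh. miR-193b-3p made up 32.8% to 36.1% and 22.9% to 26.9%, respectively. Together they came to 95.3% to 96.6% of the clusters' reads in every NC library and 95% to 97.1% in every circSOD2-sh library. The remaining 5 products were at 15.5 normalized CPM or less in every library.

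**Figure D1:**
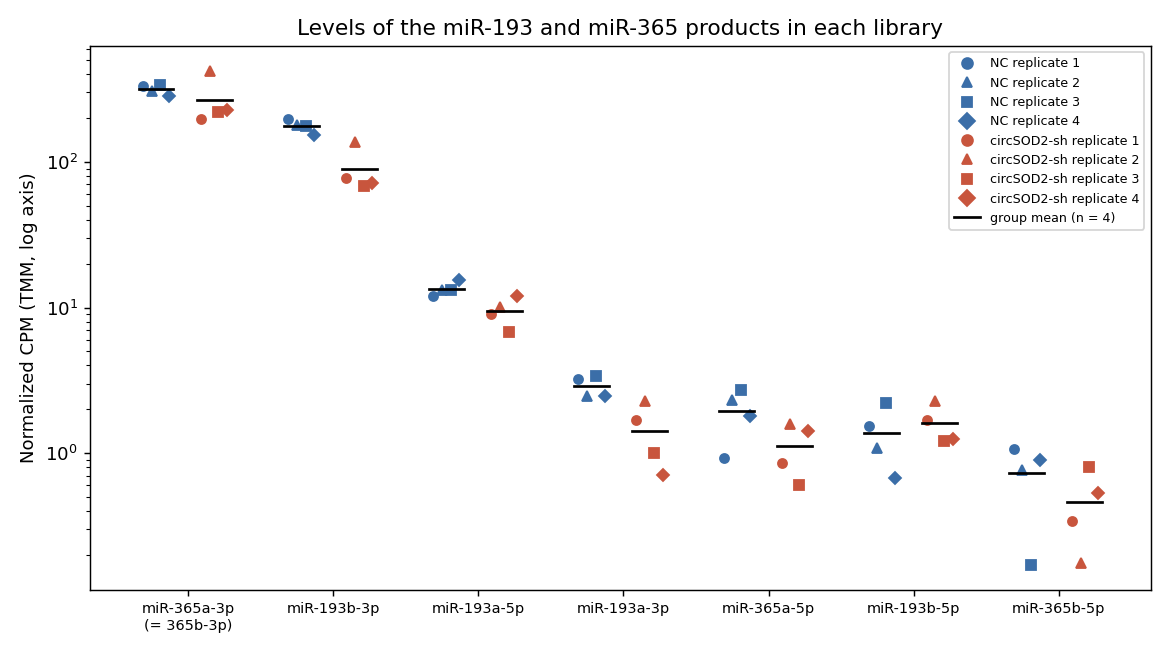
Level of each product in each library, in normalized CPM (TMM) on a log axis, with NC in blue, circSOD2-sh in red, one symbol per replicate number and a line at each group mean (n = 4). miR-365a-3p and miR-193b-3p sit far above the other products, and circSOD2-sh replicate 2 is the highest red point for both of them, at 422.9 and 136.3.

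By mean normalized CPM, the order was the same in both groups for the products above the low-count filter: miR-365a-3p first (rank 83 among known miRNAs in NC and 94 in circSOD2-sh), then miR-193b-3p (104 and 143), miR-193a-5p (251 and 300) and miR-193a-3p (388 and 521). Neighbours in this order did not overlap in any library of the same group. Among the products near the floor, miR-365a-5p overlapped miR-193b-5p, miR-365b-5p and miR-193a-3p in both groups. miR-193b-5p and miR-365b-5p overlapped in NC but not in circSOD2-sh, where miR-193b-5p was at 1.204 to 2.295 normalized CPM and miR-365b-5p at 0.177 to 0.803. In NC, miR-193a-3p (2.463 to 3.41) lay above miR-193b-5p (0.674 to 2.217) and miR-365b-5p (0.171 to 1.074) in every library. In circSOD2-sh, miR-193a-3p overlapped both. Beyond that, the order of these products was not resolved at this depth. These levels are relative shares of reads and were not scaled for length. Ligation of adapters to small RNAs depends on their sequence, so differences in level between miRNAs include that preference.

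miR-193b-3p was lower in circSOD2-sh with TMM scaling. In bulk libraries like these, fewer cells with a product and less of it in each cell cannot be told apart. Its level was 196.3, 179.8, 175.5 and 152.8 normalized CPM in NC replicates 1 to 4 and 78.0, 136.3, 68.6 and 72.0 in circSOD2-sh replicates 1 to 4. The lowest NC library lay above the highest circSOD2-sh library, and replicate 2 was the circSOD2-sh library nearest to NC. The group means were 176 ± 17.9 and 88.8 ± 31.9 normalized CPM (SD, n = 4). On the log2 scale the fold change was -0.99 ± 0.22 (standard error), with an adjusted p of 0.002614 (edgeR's quasi-likelihood test with Benjamini-Hochberg adjustment over 895 miRNAs). An exact two-sided permutation test over the libraries gave p = 0.0286, the smallest that 4 against 4 can give. Scaling to library totals instead left a difference well within the spread (log2 fold change -0.03, adjusted p = 0.903 from edgeR), as did limma on log2 of the deposited CPM plus 1 (-0.22, adjusted p = 0.318), the lowest adjusted p over its 18 alternatives being 3.8e-07.

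Among all 895 tested miRNAs, 65.7% were called in either direction at an adjusted p under 0.05 from edgeR, 32.4% were called lower and 33.3% higher in circSOD2-sh, and 60.3% had groups that did not overlap. Among the 463 known miRNAs tested, 28.5% were called lower. Of the 7 members, 3 were called lower, 0 were called higher, 1 was tested and not called, and 3 did not pass the low-count filter. The same 3 called members were those whose groups did not overlap. Calls and non-overlapping groups were thus common in this comparison, and no more is read from the members' count.

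miR-193a-3p, which has the seed of miR-193b-3p, was also lower in circSOD2-sh with TMM scaling, at much lower counts. NC libraries held 21, 16, 20 and 11 counts, or 3.22, 2.46, 3.41 and 2.47 normalized CPM. The circSOD2-sh libraries held 10, 13, 5 and 4 counts, or 1.70, 2.29, 1.00 and 0.71 normalized CPM. The groups did not overlap, but the gap between NC replicate 2 and circSOD2-sh replicate 2 was small. The means were 2.89 ± 0.496 and 1.43 ± 0.712 normalized CPM (SD, n = 4), for a log2 fold change of -1.0 ± 0.33 (standard error) and an edgeR adjusted p of 0.02295. This call was lost with library totals (-0.05, adjusted p = 0.902), with limma on the deposited CPM (-0.17, adjusted p = 0.466), with DESeq2 (-1.07, adjusted p = 0.072), with no low-count filter in edgeR (-1.03, adjusted p = 0.0721) and in edgeR without NC replicate 1 (-0.99, adjusted p = 0.0514), and without NC replicate 3 the miRNA no longer passed the filter. Over its 16 alternatives the adjusted p lay between 0.00399 and 0.902.

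miR-193a-5p, the other arm of that hairpin, was slightly lower in circSOD2-sh with TMM scaling and turned higher with library totals (log2 fold change 0.47, adjusted p = 0.0507 from edgeR). It stood at 11.96, 13.24, 13.13 and 15.51 normalized CPM in NC and at 9.01, 10.06, 6.82 and 11.92 in circSOD2-sh. The highest circSOD2-sh library, replicate 4, lay just under the lowest NC library, replicate 1. With TMM, means of 13.5 ± 1.48 and 9.45 ± 2.13 normalized CPM (SD, n = 4) gave a log2 fold change of -0.50 ± 0.19 (standard error) at an edgeR adjusted p of 0.03955. Without NC replicate 4 the same edgeR fit gave -0.48 with an adjusted p of 0.0677, and over all 18 alternatives the adjusted p lay between 0.00505 and 0.188.

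miR-365a-3p, the most abundant product, was not called different with TMM scaling when all 8 libraries were used. NC libraries stood at 329.2, 309.0, 337.5 and 283.4 normalized CPM. The circSOD2-sh libraries stood at 198.3, 422.9, 220.9 and 227.0 normalized CPM. Replicates 1, 3 and 4 of circSOD2-sh were below every NC library, and replicate 2 was above every NC library. Group means were 314.8 ± 24.1 and 267.3 ± 104 normalized CPM (SD, n = 4), for a log2 fold change of -0.24 ± 0.22 (standard error) with an edgeR adjusted p of 0.3704. Library totals turned this to 0.72 with an adjusted p of 0.00785 in edgeR, the adjusted p over all 18 alternatives being between 3.99e-05 and 0.465.

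With TMM scaling, whether miR-365a-3p was called depended on circSOD2-sh replicate 2. There miR-365a-3p was 1.96 times and miR-193b-3p 1.87 times the mean of the other 3 circSOD2-sh libraries, while miR-193a-5p was 1.09 times it. Across known tested miRNAs, 194 of 463 (41.9%) were highest in that library within its group. Leaving it out gave an edgeR log2 fold change of -0.65 for miR-365a-3p (adjusted p = 0.000172), -1.38 for miR-193b-3p (adjusted p = 2.4e-06), -1.42 for miR-193a-3p (adjusted p = 0.00399) and -0.63 for miR-193a-5p (adjusted p = 0.025). With NC replicate 4 left out as well, the values were -0.70 for miR-365a-3p (adjusted p = 3.99e-05), -1.43 for miR-193b-3p (adjusted p = 3.8e-07), -1.48 for miR-193a-3p (adjusted p = 0.00407) and -0.56 for miR-193a-5p (adjusted p = 0.0469). The neural and stromal markers were also high in circSOD2-sh replicate 2. In NC replicate 4 the stromal markers were at 557 normalized CPM and the neural markers at 524. There miR-193b-3p was 0.831 times and miR-365a-3p 0.871 times the mean of the other 3 NC libraries, while miR-193a-5p was 1.21 times it. The part of the markers in the result was not tested.

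The choice of denominator was followed through to the members, and the scale of known miRNAs was chosen after these values were seen. As CPM of the known miRNAs alone, miR-193b-3p ranged from 290 to 382 over NC and from 94.9 to 190 over circSOD2-sh. miR-365a-3p ranged from 538 to 641 and from 305 to 590, respectively. As CPM of all listed miRNAs, the ranges for miR-193b-3p overlapped, at 106 to 138 in NC and 91.3 to 183 in circSOD2-sh, whereas miR-365a-3p was higher in every circSOD2-sh library, at 294 to 569 against 197 to 247. With totals over known miRNAs, edgeR gave log2 fold changes of -1.34 for miR-193b-3p (adjusted p = 0.000658), -1.34 for miR-193a-3p (adjusted p = 0.00685), -0.84 for miR-193a-5p (adjusted p = 0.00505) and -0.59 for miR-365a-3p (adjusted p = 0.034), against a median of -0.477 over known miRNAs on that scale.

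**Figure D2:**
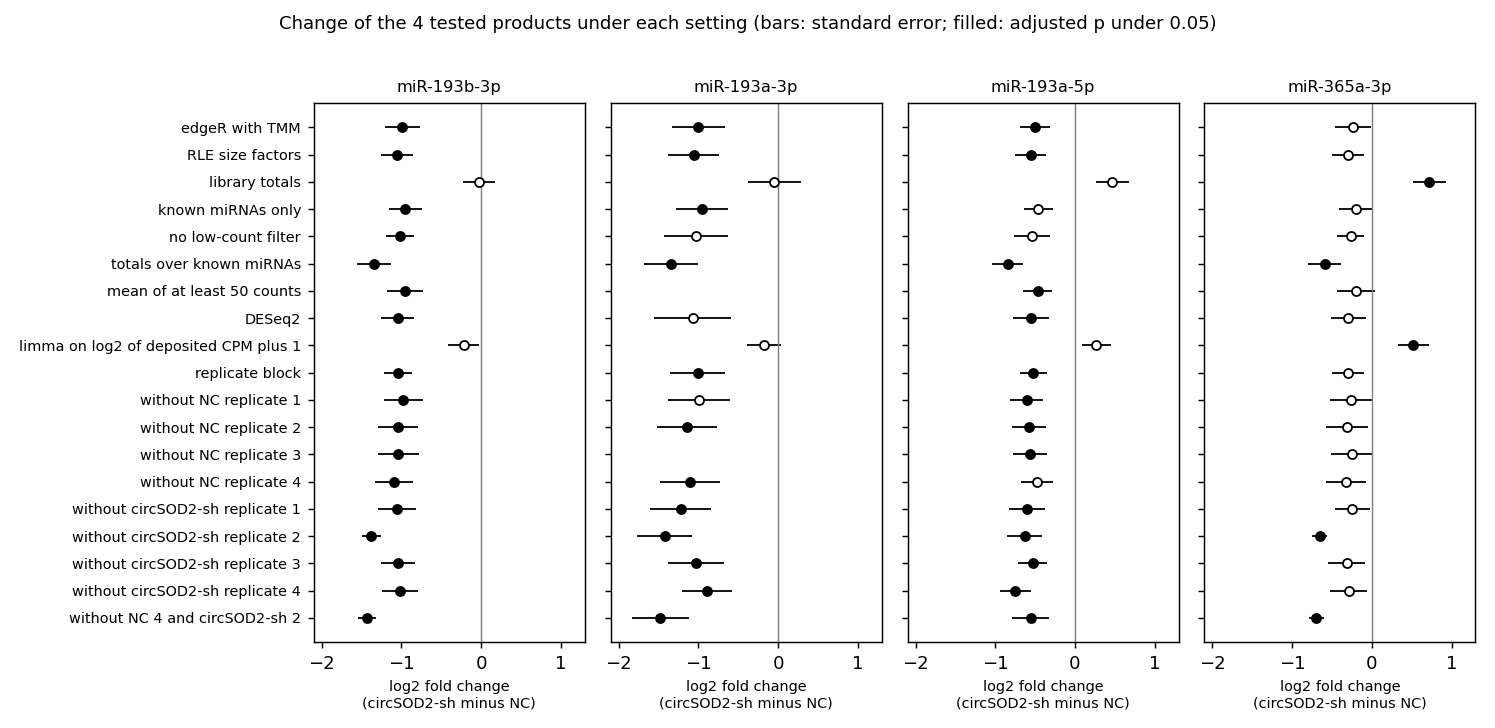
Log2 fold change (circSOD2-sh minus NC) of the 4 tested products under each setting, one row per setting, with bars of 1 standard error and filled points where the adjusted p was under 0.05. The values for miR-193a-5p and miR-365a-3p turn positive with library totals and with limma on the deposited CPM, and the filled points for miR-365a-3p below 0 are those with totals over known miRNAs and those without circSOD2-sh replicate 2.

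A ratio of products within one library does not depend on library scaling, apart from a small added constant of 0.5 normalized CPM. The ratio of miR-193b-3p to miR-365a-3p was examined after the values were seen. In NC replicates 1 to 4 there were 0.596, 0.582, 0.52 and 0.539 counts of miR-193b-3p per count of miR-365a-3p. In circSOD2-sh replicates 1 to 4 there were 0.393, 0.322, 0.311 and 0.317. Every circSOD2-sh library was below every NC library, and replicate 2, which was high for both products, sat among the others.

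On the log2 scale this ratio went from -0.84 ± 0.09 in NC to -1.57 ± 0.16 in circSOD2-sh (SD, n = 4), a difference of -0.74 (p = 0.0286 in an exact two-sided permutation test, which is the smallest value possible). With library totals the difference was -0.74, which is no separate check, since scaling enters only through the added constant. It was -0.73 without both outstanding libraries, and between -0.81 and -0.70 with each library left out in turn. For comparison, ratios were taken for 223 pairs of tested known miRNAs whose hairpins lie within 20000 bases of each other. Their log2 ratios had a median absolute difference of 0.599, and 40.8% had groups that did not overlap. Of these pairs, 89 had a larger difference than miR-193b-3p to miR-365a-3p. Many of the pairs share a miRNA with other pairs, so they are not independent. The pair of miR-193a-5p and the shared 3p strand of miR-365 differed by -0.206, with groups that overlapped. Since both miR-365 hairpins give the same 3p strand, a ratio to it sets the product of one miR-193 hairpin against that of both miR-365 loci.

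**Figure D3:**
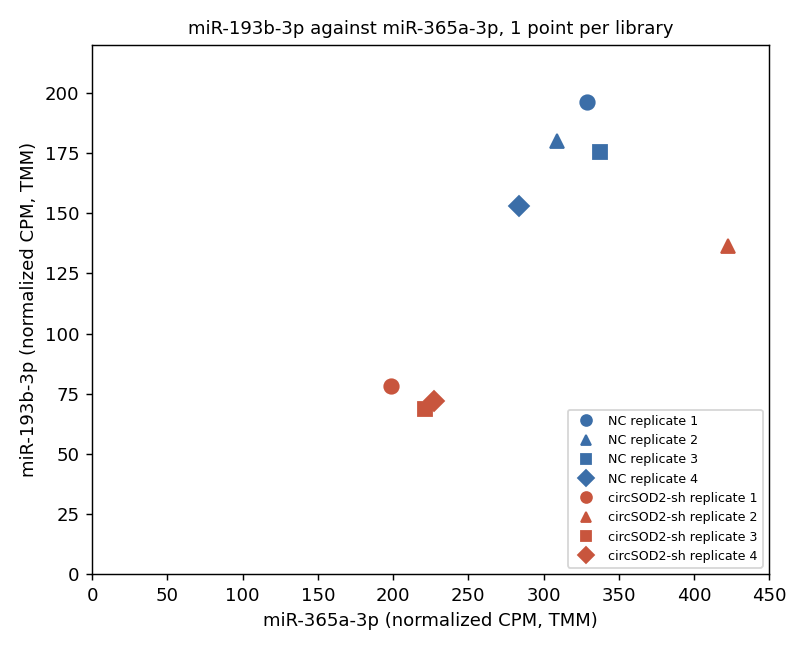
Level of miR-193b-3p against that of miR-365a-3p, both in normalized CPM (TMM), one point per library. NC libraries lie at 152.8 to 196.3 on the vertical axis and 283.4 to 337.5 on the horizontal axis, 3 circSOD2-sh libraries lie below them on both axes, and circSOD2-sh replicate 2 lies furthest to the right while remaining below NC for miR-193b-3p.

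For the paralogous 3p strands of miR-193, which share a seed, no difference in proportion beyond the error of the low counts was found. Over each whole group, miR-193b-3p exceeded miR-193a-3p by 61.1-fold in NC (4157 and 68 counts) and by 61.8-fold in circSOD2-sh (1978 and 32 counts). The log2 ratio of miR-193a-3p to miR-193b-3p was -5.71 ± 0.18 in NC and -5.55 ± 0.31 in circSOD2-sh (SD, n = 4), a difference of 0.16 (standard error 0.17, adjusted p = 0.4456 from limma over 131 paralog ratios). Of those 131 ratios, 47.3% were called, and 48.9% had groups that did not overlap. This difference is small beside its error, and its sign depended on the constant, at -0.04 with a constant of 0.1 and at 0.49 with a constant of 2 (limma adjusted p = 0.0158), a constant close to the level of miR-193a-3p itself.

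The arms of the miR-193 paralogs were used in opposite proportions. At the miR-193a hairpin the 5p strand held most reads, 78.8% to 86.2% in NC and 81.4% to 94.4% in circSOD2-sh. At the miR-193b hairpin the 5p strand held 0.439% to 1.25% in NC and 1.66% to 2.13% in circSOD2-sh. In counts over the whole group, miR-193a gave 310 counts of 5p and 68 of 3p in NC and 211 and 32 in circSOD2-sh, whereas miR-193b gave 33 and 4157 in NC and 36 and 1978 in circSOD2-sh. No library of either group departed from this pattern, and the 5p strand of miR-193a outnumbered that of miR-193b in every library.

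The arm ratio of miR-193a did not differ beyond its error between the groups. Its log2 ratio of 5p to 3p was 2.05 ± 0.33 in NC and 2.42 ± 0.64 in circSOD2-sh (SD, n = 4), a difference of 0.37 (standard error 0.31, adjusted p = 0.3271 from limma over 117 hairpins). Among the 117 hairpins, 58.1% were called, 30.8% with a higher 5p share in circSOD2-sh. The highest value, 3.36, was that of circSOD2-sh replicate 4, in which 4 counts of miR-193a-3p stood against 67 of miR-193a-5p. Without that library the difference was 0.03.

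For miR-193b the 5p share was higher in every circSOD2-sh library than in any NC library. The log2 ratio of 5p to 3p went from -6.62 ± 0.44 in NC to -5.37 ± 0.19 in circSOD2-sh (SD, n = 4), a difference of 1.25 (p = 0.0286, again the smallest value possible, in an exact two-sided permutation test chosen after the values were seen). The 5p strand held only 10, 7, 13 and 3 counts in NC and 10, 13, 6 and 7 in circSOD2-sh, and did not pass the low-count filter, so that no limma test was made. Exact 95% binomial intervals of the 5p share overlapped between libraries of the groups, for example 0.666% to 2.12% in NC replicate 3 and 0.885% to 2.82% in circSOD2-sh replicate 2. Among the 117 hairpins with both arms tested, 55.6% had arm ratios that did not overlap between the groups.

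**Figure D4:**
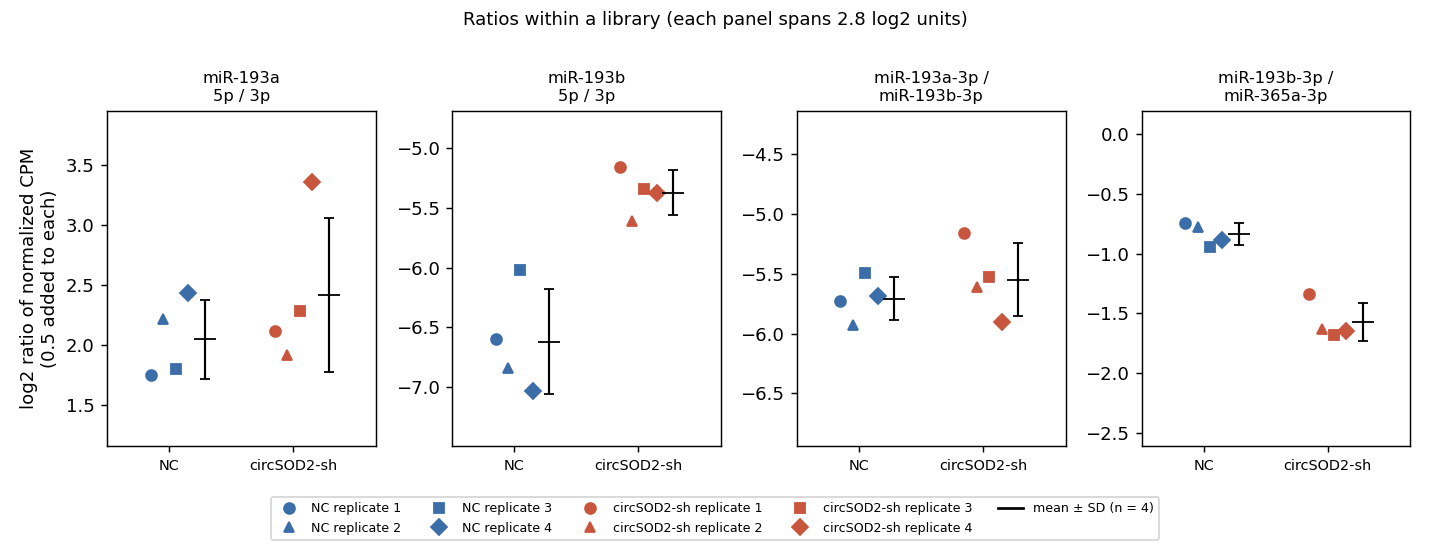
Log2 ratios of normalized CPM within each library, one panel per ratio and one symbol per replicate number, with mean ± SD beside each group (n = 4, and 0.5 added to each level). The panels all span the same number of log2 units, and the groups are apart for the arm ratio of miR-193b and for miR-193b-3p to miR-365a-3p, but overlap for the arm ratio of miR-193a and for miR-193a-3p to miR-193b-3p.

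The remaining 5p products were near the floor. miR-193b-5p held 33 counts over the NC libraries and 36 over the circSOD2-sh libraries, a rate of 1.41 normalized CPM in NC (exact Poisson 95% interval 0.974 to 1.99) and 1.63 in circSOD2-sh (1.14 to 2.25). Its groups overlapped widely (exact permutation p = 0.543), and it was the only member whose mean was not lower in circSOD2-sh with TMM. At this depth no difference was detectable for it.

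miR-365a-5p held 6, 15, 16 and 8 counts in NC and 5, 9, 3 and 8 in circSOD2-sh. Its rate was 1.93 normalized CPM in NC (exact Poisson 95% interval 1.41 to 2.58) and 1.13 in circSOD2-sh (0.731 to 1.67), with exact permutation p = 0.114. miR-365b-5p held 7, 5, 1 and 4 counts in NC and 2, 1, 4 and 3 in circSOD2-sh, with exact permutation p = 0.343. Both sets of libraries overlapped, and several single values were at or under the floor of 3 counts. In an edgeR fit with no low-count filter, in which 21% of 3112 miRNAs were called, the 3 low products had adjusted p-values of 0.775 (miR-193b-5p), 0.269 (miR-365a-5p) and 0.437 (miR-365b-5p).

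The 5p strands of miR-365 differ in sequence and therefore show reads from each locus, which the 3p strand cannot. Over the NC libraries there were 45 counts of miR-365a-5p and 17 of miR-365b-5p, and over the circSOD2-sh libraries 25 and 10. The log2 ratio of miR-365a-5p to miR-365b-5p was 0.99 ± 1.00 in NC and 0.74 ± 0.77 in circSOD2-sh (SD, n = 4, exact permutation p = 0.686). Reads of both loci were thus present, in a proportion known only roughly. Against the shared 3p strand, miR-365a-5p made 0.279% to 0.802% of the reads in NC and 0.272% to 0.623% in circSOD2-sh (exact permutation p = 0.429).

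As a description over 8 libraries that share the group difference, the members were compared with each other by Pearson's r of log2(normalized CPM + 1). After group means were taken out, miR-193b-3p and miR-365a-3p had r = 0.933 and miR-193a-3p and miR-193b-3p had r = 0.797. All 3 of these products were high in circSOD2-sh replicate 2, where miR-193a-3p, at 13 counts, was 2.02 times the mean of the other 3 libraries of its group. Without that library the values within groups were 0.336 for miR-193b-3p with miR-365a-3p and 0.555 for miR-193a-3p with miR-193b-3p, and without NC replicate 4 as well they were -0.507 and 0.526. The similarity of miR-193b-3p and miR-365a-3p within groups thus rested on circSOD2-sh replicate 2. The arms of miR-193a had r = -0.146, at counts of 4 to 21 for the 3p strand.

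Among 132 known miRNAs with a mean of at least 100 normalized CPM, those most like miR-193b-3p over the 8 libraries were miR-16-5p (r = 0.963, 0.885 within groups), miR-15a-5p (r = 0.963, 0.85 within groups) and let-7e-5p (r = 0.96, 0.894 within groups). Without circSOD2-sh replicate 2 their values within groups were 0.228, 0.295 and -0.093, so that this likeness too rested on that library and on the difference between the groups. Those most like miR-193a-5p were miR-744-5p (r = 0.9, 0.78 within groups), miR-339-3p (r = 0.859, 0.687 within groups) and miR-22-3p (r = 0.814, 0.519 within groups), and without circSOD2-sh replicate 2 these were 0.779, 0.732 and 0.487 within groups. All 6 had lower group means in circSOD2-sh with TMM and positive log2 fold changes with library totals, as miR-193a-5p had.

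Other miRNAs known from brown fat and muscle were called about as often as all tested miRNAs. Of 17 such miRNAs listed, 15 were tested, 5 were called higher, 4 were called lower and 6 were not called in circSOD2-sh by edgeR, where 33.3% of all tested miRNAs were called higher and 32.4% lower. The list's median log2 change was -0.207, beside -0.111 over the known miRNAs tested and -0.00207 over every tested miRNA. All 4 muscle markers named above are on this list, and in circSOD2-sh they ranged from 10.7 to 30.4 normalized CPM together. The most abundant called higher was miR-30c-5p, at 628.8 ± 179 and 6362 ± 668 normalized CPM (SD, n = 4). Its log2 fold change was 3.34 (adjusted p = 1.348e-07 from edgeR), and miR-30b-5p followed with 1.71 (adjusted p = 4.157e-07 from edgeR). The others called higher were also named after their values were seen. They were miR-378a-5p with 4.05 (adjusted p = 0.0002581 from edgeR), miR-328-3p with 2.49 (adjusted p = 0.00224 from edgeR) and miR-1-3p with 0.80 (adjusted p = 0.04595 from edgeR). Of the 4 called lower with TMM, the most abundant were miR-182-5p, with a log2 fold change of -0.25 (adjusted p = 0.03053 from edgeR) that became 0.71 with library totals, and miR-455-5p, with -0.41 (adjusted p = 0.03611 from edgeR) that became 0.56. The others, named after their values were seen, were miR-34a-5p, with -2.38 (adjusted p = 8.94e-05 from edgeR) and still -1.42 with library totals, and miR-155-5p, with -0.52 (adjusted p = 0.01965 from edgeR) that became 0.45.

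Sequences complementary to the members' seeds were searched in circSOD2, rebuilt as a ring of 462 bases from 3 exons of SOD2 in GENCODE 29, in which both of the study's 2 shRNA targets were found. The motifs, on the sense strand only and written as RNA, were GGCCAGU for miR-193a-3p and miR-193b-3p, GGGCAUU for miR-365a-3p, AAGUCCC for the miR-365 5p strands, AAGACCC for miR-193a-5p and AAACCCC for miR-193b-5p. None of the motifs occurred, nor did their matches to bases 2 to 7. Of 2370 RefSeq mature miRNAs, 2.95% had a match to bases 2 to 8 and 11.6% to bases 2 to 7 in this ring. An absent match says only that these letters are not in the ring.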

How the data were processed

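Small RNA libraries of 786O cells (4 NC, 4 circSOD2-sh) were compared. Raw counts for each mature miRNA were deposited, together with CPM that the authors computed over totals exceeding the sum of the table, and a table of their own comparison (means, fold changes and p-values) that was not used. The submitters' processing notes name FastQC 0.11.2, Trimmomatic 0.36, Bowtie 1.1.1 and GRCh38 without roles, and the annotation and the caller of predicted miRNAs are not given in the sources used here. Members and lists were chosen with earlier results of these data known.

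The counts were modelled with edgeR 4.0.16 in R 4.3.3 (filterByExpr with a minimum count of 10, TMM, quasi-likelihood test, prior count 0.125, Benjamini-Hochberg adjustment), called at an adjusted p under 0.05. Standard errors were derived from the fold change and its F statistic. Ratios were tested with limma 3.58.1. Permutation tests of levels used log2(normalized CPM + 1). Alternatives were library totals, totals over known miRNAs, RLE size factors, DESeq2 1.42.0, known miRNAs only, other filters, limma on log2 of the deposited CPM plus 1, other constants, the replicate block and libraries left out. Lists were brown fat and muscle, and markers of kidney tubule, epithelium, hypoxia, neural, muscle, leukocyte, erythroid, stromal and liver cells. Named were the members, the 3 miRNAs most like miR-193b-3p and miR-193a-5p, and the 2 most abundant called miRNAs of the brown fat and muscle list in each direction. The other called miRNAs of that list were named after their values were seen. On simulated data (895 miRNAs, 198 changed ones tested), edgeR recovered 99.5% and called 0.741% of the unchanged. The simulated log2 changes were of size 2, up and down alike, and levels were otherwise equal between the groups. These shares therefore do not measure recovery at the members' smaller changes, nor errors under the uneven composition of the real libraries. No library pair of a group was alike enough to be a repeat (chi-square per degree of freedom 9.45 to 128).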

Additional observations from a re-analysis of the deposited data

Results flagged for a closer look

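In 30 groups of 4 libraries (levels and ratios of the members in NC and in circSOD2-sh), 3 held a library far from the other 3 by Dixon's criterion, where chance gives about 1 in 20 groups, or 1.5 of 30. In circSOD2-sh, replicate 2 was at 136 normalized CPM of miR-193b-3p, the nearest other library being at 78.0. The same library was at 423 normalized CPM of miR-365a-3p, the nearest other library being at 227. For the log2 ratio of miR-193b-3p to miR-365a-3p, circSOD2-sh replicate 1 was at -1.34 and the nearest other library at -1.63, so the library that stood apart in both levels did not stand apart in their ratio.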

How the results depend on the processing

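Scaling moved the members most. With library totals, edgeR gave 0.47 for miR-193a-5p and 0.72 for miR-365a-3p, both reversed, -0.046 for miR-193a-3p and -0.027 for miR-193b-3p, both no longer called. With limma on log2 of the deposited CPM plus 1, values were 0.27 and 0.52, both reversed, and -0.17 and -0.22, both no longer called. Totals over known miRNAs, added after the data were seen, gave -0.59 for miR-365a-3p, then called. The 588 called miRNAs (298 higher, 290 lower) became 771 with library totals (613 higher, 158 lower), 724 with limma (561 higher, 163 lower), 328 with totals over known miRNAs (93 higher, 235 lower), 246 with known miRNAs only and 361 with a mean of at least 50 counts, the last 3 testing fewer miRNAs. miR-193a-5p was not called with known miRNAs only (-0.46) or with no low-count filter (-0.53), nor miR-193a-3p with no filter (-1.03) or DESeq2 (-1.07). The ratio of miR-193a-3p to miR-193b-3p was -0.037 with a constant of 0.1, -0.045 with library totals and 0.49, then called, with a constant of 2. Where not stated, the cause was not tested.

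With each library left out in turn, log2 fold changes ranged from -0.75 to -0.48 for miR-193a-5p, from -1.42 to -0.89 for miR-193a-3p (7 fits), from -1.38 to -0.98 for miR-193b-3p and from -0.65 to -0.25 for miR-365a-3p, and the number called from 537 to 661. Without both NC replicate 4 and circSOD2-sh replicate 2, miR-365a-3p was called at -0.70. miR-193a-3p had no value with a mean of at least 50 counts or without NC replicate 3.

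No pairing of libraries by replicate number was seen, as deviations of same-numbered libraries correlated at 0.26, -0.0994, 0.0964 and -0.174. With libraries that stand apart in each group, this does not exclude a pairing. With the replicate block, log2 fold changes were -0.53 for miR-193a-5p, -1.01 for miR-193a-3p, -1.04 for miR-193b-3p and -0.30 for miR-365a-3p, ratios 0.37 for the arms of miR-193a and 0.16 for miR-193a-3p to miR-193b-3p, and 574 miRNAs, 64 arm ratios and 63 paralog ratios were called, with no member's call changed.

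Depth limits the 5p products of miR-193b and miR-365 and, in part, miR-193a-3p, whose counts fell to 4.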
